A study of Mus musculus with 95 samples.

Results

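PCGF1 and PCGF2 are alternative core subunits of Polycomb repressive complex 1 (PRC1), and the data described here are their called binding sites in mouse embryonic stem cells with and without the histone methyltransferases EZH1 and EZH2. Of the 95 samples of the series, 4 are ChIP-seq samples of these proteins in the 2 genotypes. The members were chosen as the peak lists of the Pcgf1 and Pcgf2 antibodies in wild-type cells and in cells labelled Ezh1/2-/-. The lists held 736 wild-type and 4150 Ezh1/2-/- peaks for PCGF1, and 4472 wild-type and 163 Ezh1/2-/- peaks for PCGF2. The lists of each antibody in cells without its own target served as background and held 15 peaks for the Pcgf1 antibody in Pcgf1-/- cells and 1050 peaks for the Pcgf2 antibody in Pcgf2/4-/- cells.

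All samples came from E14, an established mouse embryonic stem cell line, and its derivatives, kept undifferentiated in serum medium with LIF and with inhibitors of MEK1/2 and GSK3β. Per the labels, each Pcgf knockout line is a Cas9 clone, and the line without Ring1a carries a floxed Ring1b with an inducible Cre. The Pcgf2/4-/- line also lacks PCGF4, the product of Bmi1. Other lines used for comparison with the same antibodies were Pcgf1-/- (for PCGF2), Pcgf2/4-/- (for PCGF1), Pcgf3/5-/-, Pcgf6-/-, a line labelled Ring1a-/-_Ring1bfl and a line labelled Ring1a/b-/-. How the Ezh1/2-/- cells were made is not given in the sources used here, and RNA, H3K27me3, SUZ12 and RING1B measurements in that line were not analysed here, so its label is unchecked by a measurement. Each group was 1 sample with 1 peak list, so no difference has a replicate check and no test was made. Intervals are 95% Wilson intervals and cover counting error only.

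PRC2 methylates histone H3 at lysine 27 through EZH1 or EZH2, with SUZ12 as a core subunit. Canonical PRC1, which holds PCGF2 or PCGF4 with RING1A or RING1B, carries CBX proteins that bind trimethylated lysine 27 (H3K27me3). The variant complex with PCGF1 holds RYBP or YAF2 in place of CBX proteins and is recruited through KDM2B, whose zinc finger binds CpG dinucleotides that are not methylated. Both kinds of complex can place ubiquitin on histone H2A (the mark H2AK119ub1), and both lie mainly at CpG-rich promoters of developmental genes in embryonic stem cells.

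Sequences at the summits of leading peaks are shown first, because CpG density is the sequence feature that these complexes are known to follow. Each run is 200 bases around the summit from the build NCBIM37 (mm9), the build of the peak coordinates, given 5′ to 3′ on the plus strand, with every CpG in capitals. The peaks are the highest-ranked ones by the authors' fold enrichment near a protein-coding start whose window met no annotated UTR. Plk5 (chr10:79819841-79820040) and Pcdh8 (chr14:80170627-80170826) were PCGF1 peaks called in both genotypes.
Plk5: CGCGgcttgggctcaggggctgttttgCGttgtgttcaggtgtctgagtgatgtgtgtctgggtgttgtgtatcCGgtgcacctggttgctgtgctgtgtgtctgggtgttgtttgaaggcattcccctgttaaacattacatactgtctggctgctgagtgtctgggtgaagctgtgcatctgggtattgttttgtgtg
Pcdh8: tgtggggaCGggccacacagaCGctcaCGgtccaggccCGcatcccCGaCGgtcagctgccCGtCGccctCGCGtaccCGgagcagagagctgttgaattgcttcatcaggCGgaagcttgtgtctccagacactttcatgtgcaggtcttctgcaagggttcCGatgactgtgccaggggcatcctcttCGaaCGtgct
Msx3 (chr7:147234175-147234374) and Psd (chr19:46392015-46392214) were PCGF1 peaks called in Ezh1/2-/- cells and not in wild-type cells.
Msx3: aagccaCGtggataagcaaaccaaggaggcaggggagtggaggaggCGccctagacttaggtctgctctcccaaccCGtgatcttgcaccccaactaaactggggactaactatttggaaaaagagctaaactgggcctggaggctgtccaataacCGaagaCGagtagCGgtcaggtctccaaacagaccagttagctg
Psd: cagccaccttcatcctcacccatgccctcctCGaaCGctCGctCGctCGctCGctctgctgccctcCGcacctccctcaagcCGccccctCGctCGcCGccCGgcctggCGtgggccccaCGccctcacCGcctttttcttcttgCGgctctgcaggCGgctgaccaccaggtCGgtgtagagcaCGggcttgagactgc
Tnxb (chr17:34809038-34809237) and Zic1 (chr9:91259325-91259524) were PCGF2 peaks of wild-type cells with no call in Ezh1/2-/- cells.
Tnxb: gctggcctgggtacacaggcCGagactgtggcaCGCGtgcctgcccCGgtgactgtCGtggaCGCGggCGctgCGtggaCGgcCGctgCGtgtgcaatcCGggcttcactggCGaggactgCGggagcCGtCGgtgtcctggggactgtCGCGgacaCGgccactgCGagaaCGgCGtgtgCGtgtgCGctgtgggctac
Zic1: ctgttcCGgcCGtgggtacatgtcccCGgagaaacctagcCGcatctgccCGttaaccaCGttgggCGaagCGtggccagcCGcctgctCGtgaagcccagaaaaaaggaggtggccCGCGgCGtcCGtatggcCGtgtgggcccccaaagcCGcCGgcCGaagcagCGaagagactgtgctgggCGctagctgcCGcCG
Gyltl1b (chr2:92210547-92210746) was a PCGF1 peak of wild-type cells without a call in Ezh1/2-/- cells, tied with Efna3 for the highest fold enrichment near a start, 8.45. Usp5 (chr6:124778979-124779178) is shown as background: the Pcgf2 antibody gave a peak there in wild-type, Ezh1/2-/- and Pcgf2/4-/- cells.
Gyltl1b: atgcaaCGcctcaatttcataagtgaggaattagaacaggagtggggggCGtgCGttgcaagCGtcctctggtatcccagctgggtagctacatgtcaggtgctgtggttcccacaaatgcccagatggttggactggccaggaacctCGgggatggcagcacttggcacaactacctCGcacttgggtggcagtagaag
Usp5: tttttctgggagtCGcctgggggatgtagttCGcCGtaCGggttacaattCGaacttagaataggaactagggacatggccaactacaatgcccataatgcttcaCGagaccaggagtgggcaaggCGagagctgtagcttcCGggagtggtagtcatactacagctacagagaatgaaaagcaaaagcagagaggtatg
The 200 bases held 25 CpG at Tnxb, 22 at Zic1, 19 at Psd and 15 at Pcdh8. They held 8 at Usp5, 6 at Msx3, 6 at Gyltl1b and 4 at Plk5.

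Summits of most PCGF1 and PCGF2 classes lay in sequence richer in CpG than gene starts. PCGF1 peaks called only in wild-type were close to gene starts in this respect. The 7 PCGF2 peaks called only in Ezh1/2-/- and outside the background list were poorer, with a median of 6 CpG and 34.3% GC. In 300-base windows around the summit, the median number of CpG was 23 at PCGF1 peaks called in both genotypes, 19 at PCGF1 peaks called only in Ezh1/2-/- and 16 at PCGF1 peaks called only in wild-type. It was 23 at wild-type PCGF2 peaks and 15 in 22369 windows at the starts of protein-coding genes, 1 for each gene identifier. Windows with at least 50% GC and an observed to expected CpG ratio of at least 0.6 made up 76.6% (73.3 to 79.7) of the 659 kept PCGF1 peaks and 61.1% (59.5 to 62.7) of the 3546 new ones. The share was 50.7% (39.1 to 62.3) of the 67 lost PCGF1 peaks, 76.4% (75.1 to 77.7) of the PCGF2 peaks and 48.7% (48.0 to 49.3) of the windows at gene starts. Of the 636 wild-type PCGF2 peaks that were also called in Pcgf2/4-/- cells, 61.0% (57.2 to 64.7) met the same criterion. The share was 84.9% (78.3 to 89.7) for the 152 of these called in Ezh1/2-/- cells and 53.5% (49.1 to 57.9) for the other 484.

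PCGF1 peaks of wild-type cells were mostly called again without EZH1/2. Of 726 wild-type peaks left after removal of 10 that overlapped a Pcgf1-/- peak, 659 (90.8%, 88.4 to 92.7) shared at least 1 bp with a peak of the Ezh1/2-/- list. The other 67 (9.23%, 7.33 to 11.6) had no call there. The Pcgf1-/- list overlapped 0 of the 726 by construction and held 15 peaks. The next shortest list of this antibody, in Pcgf3/5-/- cells, held 214, and the read depth of both is unknown. The share depended on the way overlap was counted. With lists cut to the 726 highest peaks each, 53% were shared, and when at least 50% of both peaks had to be shared the value was 28.8%. Wild-type peaks were narrower, with a median of 451 bp among kept peaks against 1238 bp for the Ezh1/2-/- peaks they met.

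The same wild-type peaks were called by the same antibody in other lines at different rates. The shares were 98.8% in Ring1a-/-_Ring1bfl, 86.8% in Pcgf6-/-, 78.1% in Pcgf2/4-/-, 22.6% in Ring1a/b-/- and 17.8% in Pcgf3/5-/- cells. The order of the shares was that of list length, since the lists held 12735, 3228, 1845, 1091 and 214 peaks. The Ezh1/2-/- list, with 4150 peaks, fell between Pcgf6-/- and Ring1a-/-_Ring1bfl in both respects.

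**Figure D1:**
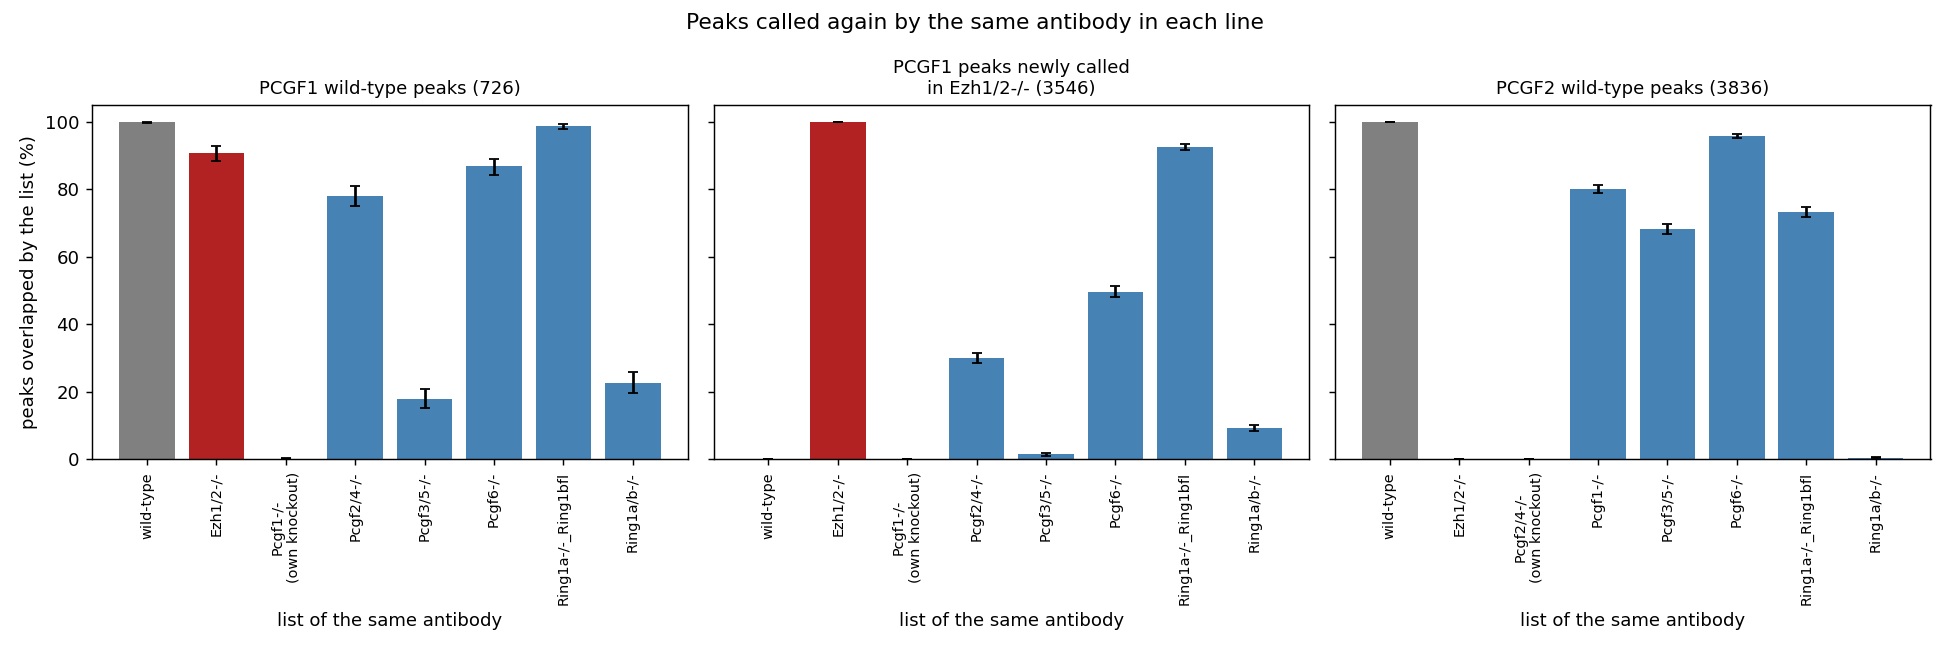
Share of peaks (vertical axis, percent) overlapped by at least 1 bp by the list of the same antibody in each line (horizontal axis), for 726 wild-type PCGF1 peaks, 3546 PCGF1 peaks newly called in Ezh1/2-/- and 3836 wild-type PCGF2 peaks. Bars are single lists and error bars are 95% Wilson intervals. In Ezh1/2-/- cells 90.8% of the PCGF1 peaks and 0% of the PCGF2 peaks were called again.

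Stronger wild-type PCGF1 peaks were called again more often. In 4 bins of rising wild-type fold enrichment, the kept share was 84.8% (80.0 to 88.7), 89.6% (82.4 to 94.1), 94.2% (90.2 to 96.7) and 97.3% (93.3 to 98.9). Fold enrichment is the authors' ratio of signal over control at a peak, and here it ranks peaks within 1 list only.

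The leading kept peaks lay at genes of several kinds. Plk5, a gene of the polo-like kinase family, and Pcdh8, a protocadherin gene, shared the highest wild-type fold enrichment of 12.82. Their peaks in Ezh1/2-/- had fold enrichments of 11.4 and 10.4. Plk5 (ENSMUSG00000035486.8, chr10:79819204-79828234) held its summit in an intron 737 bases after a start, and Pcdh8 (ENSMUSG00000036422.4, chr14:80166587-80171119) in a coding exon 392 bases after a start. Neurog1, which encodes a bHLH factor of neuronal fate, had 11.45 in wild-type and 10.2 in Ezh1/2-/-, and Adcy5, an adenylyl cyclase gene, had 11.45 and 10.9. Nrbp2, Gadd45g and Ntng2 followed with 11.13, 10.35 and 10.35 in wild-type. Igf2, the imprinted gene of a fetal growth factor, had 10.87 in wild-type, the sixth rank, and 26.8 in Ezh1/2-/-, the largest value of that list. This top rank was not particular to Ezh1/2-/- cells. The Igf2 peak also had the largest value of the Pcgf2/4-/-, Pcgf6-/- and Ring1a-/-_Ring1bfl lists, at 21.4, 12.0 and 23.4. All 8 genes had wild-type H3K27me3, SUZ12 and RING1B peaks at the site and a wild-type PCGF2 peak that was not called in Ezh1/2-/-. Wild-type RNA of these 8 genes was low, from 0 RPKM in both libraries for Pcdh8 to 1.41 and 2.01 RPKM for Nrbp2 and 1.50 and 2.08 RPKM for Gadd45g.

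The 67 PCGF1 peaks without a call in Ezh1/2-/- were weaker and less often marked by Polycomb. Their fold enrichment ran from 1.65 to 8.45 with a median of 6.82, against 4.16 to 12.82 with a median of 7.25 for the kept peaks. A wild-type H3K27me3 peak lay under 47.8% (36.3 to 59.5) of them, a SUZ12 peak under 68.7% (56.8 to 78.5) and a RING1B peak under 61.2% (49.2 to 72.0). Among kept peaks the shares were 81.2% (78.0 to 84.0), 97.3% (95.7 to 98.3) and 96.8% (95.2 to 97.9). The leading lost peaks were at Gyltl1b, a glycosyltransferase gene, Efna3, an ephrin gene, Sox21, a neural transcription factor gene, Nkd2, a gene of a Wnt antagonist, and Vegfa, the vascular growth factor gene. Gyltl1b had H3K4me3 but none of H3K27me3, SUZ12 or RING1B, and among the Pcgf2/4-/-, Pcgf6-/-, Ring1a-/-_Ring1bfl and Ring1a/b-/- lists it was called in Ring1a-/-_Ring1bfl alone. Sox21 and Vegfa were called by the Pcgf1 antibody in Pcgf2/4-/-, Pcgf6-/-, Ring1a-/-_Ring1bfl and Ring1a/b-/- cells, so the missing call was not shared by those lines. Of all 67, the Ring1a-/-_Ring1bfl list held 60 (89.6%, 80.0 to 94.8) and the Pcgf6-/- list 35 (52.2%, 40.5 to 63.7).

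Wild-type Polycomb marks went with a repeated PCGF1 call. Of 567 wild-type PCGF1 peaks with H3K27me3, 535 (94.4%, 92.1 to 96.0) were kept, and of 159 without it, 78.0% (70.9 to 83.7). The order was the same among peaks above the median fold enrichment of 7.09, with 98.0% (95.7 to 99.1) and 81.5% (69.2 to 89.6). Among peaks at or below that median the shares were 90.2% (86.0 to 93.2) and 76.2% (67.2 to 83.3). The gap was wider for PRC1 itself: 94.0% (91.9 to 95.5) of 679 peaks with RING1B were kept, and 44.7% (31.4 to 58.8) of 47 without it. With a SUZ12 peak 93.3% (91.2 to 94.9) of 687 were kept, and without one 46.2% (31.6 to 61.4) of 39.

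Most PCGF1 peaks in Ezh1/2-/- cells had no wild-type call. Of 4143 peaks left after removal of 7 that overlapped a Pcgf1-/- peak, 3546 (85.6%, 84.5 to 86.6) met no wild-type PCGF1 peak and 597 (14.4%, 13.4 to 15.5) met one. The length of the lists bore on this share: between equally long lists of 726 peaks it was 55.6% (52.0 to 59.2). New peaks had a median fold enrichment of 5.75 and a highest value of 12.5, against 7.57 and 26.8 for shared peaks of the same list. In 4 bins of rising fold enrichment, 4.80%, 5.11%, 12.0% and 36.3% of the Ezh1/2-/- peaks met a wild-type peak, so even in the top bin most did not. Of the new peaks, 6.71% lay within 1 kb of a wild-type PCGF1 peak, 15.9% within 10 kb and 25.7% within 100 kb, so most lay farther than that from any wild-type PCGF1 peak.

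The new PCGF1 peaks were seldom unique to Ezh1/2-/- cells. The Ring1a-/-_Ring1bfl list overlapped 92.5% of the 3546, the Pcgf6-/- list 49.6%, the Pcgf2/4-/- list 29.9%, the Ring1a/b-/- list 9.22% and the Pcgf3/5-/- list 1.47%. At least 1 of the 4 other lines with RING1B held 3318 of them (93.6%). Measured against the wild-type and Ring1a-/-_Ring1bfl lists together, 267 of 4143 Ezh1/2-/- peaks (6.44%, 5.74 to 7.23) were new, an alternative chosen after the data were seen. The PCGF1 lists also came in different formats. The wild-type, Pcgf1-/-, Pcgf2/4-/- and Pcgf3/5-/- lists gave values to 2 decimals with generic peak names and held 736, 15, 1845 and 214 peaks. The Ezh1/2-/-, Pcgf6-/-, Ring1a-/-_Ring1bfl and Ring1a/b-/- lists gave 5 decimals with names derived from the sample and held 4150, 3228, 12735 and 1091. The part of list format and depth in the number of new peaks was not tested, and the read depth of these samples is unknown from the lists.

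New PCGF1 peaks lay largely on wild-type Polycomb sites. A wild-type H3K27me3 peak lay under 2098 of 3546 (59.2%, 57.5 to 60.8), a SUZ12 peak under 85.3% (84.1 to 86.4), a RING1B peak under 81.7% (80.4 to 82.9) and an H2AK119ub1 peak under 14.9% (13.8 to 16.2). All 3 of H3K27me3, SUZ12 and RING1B were present at 55.3% (53.6 to 56.9) and none of them at 11.5% (10.5 to 12.6). H3K4me3, the mark of CpG-rich promoters, lay under 85.2% (84.0 to 86.3). Background sites of the Pcgf2 antibody, measured the same way, had H3K27me3 at 3.93% (2.68 to 5.74), SUZ12 at 7.08% (5.33 to 9.34) and RING1B at 8.33% (6.43 to 10.7).

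The new PCGF1 peaks fell into sites with and without PCGF2 in wild-type cells. At 2250 (63.5%, 61.9 to 65.0) a wild-type PCGF2 peak was present, and SUZ12 lay under 99.9% and RING1B under 99.8% of these, with H3K27me3 under 72.4% (70.5 to 74.2). At the other 1296, SUZ12 lay under 60.0% (57.3 to 62.6), RING1B under 50.3% (47.6 to 53) and H3K27me3 under 36.2% (33.6 to 38.8). The genes differed as well. Genes within 2.5 kb of new peaks at PCGF2 sites had a median wild-type level of 0.160 RPKM, and 78.1% (75.7 to 80.3) of 1224 measured were below 1 RPKM. Genes at new peaks away from PCGF2 had a median of 1.67 RPKM, with 41.1% (37.7 to 44.6) of 781 below 1 RPKM, close to the 44.4% (43.7 to 45.1) of all 19446 genes measured. New peaks away from PCGF2 were also weaker, with a median fold enrichment of 5.57 against 6.10.

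**Figure D2:**
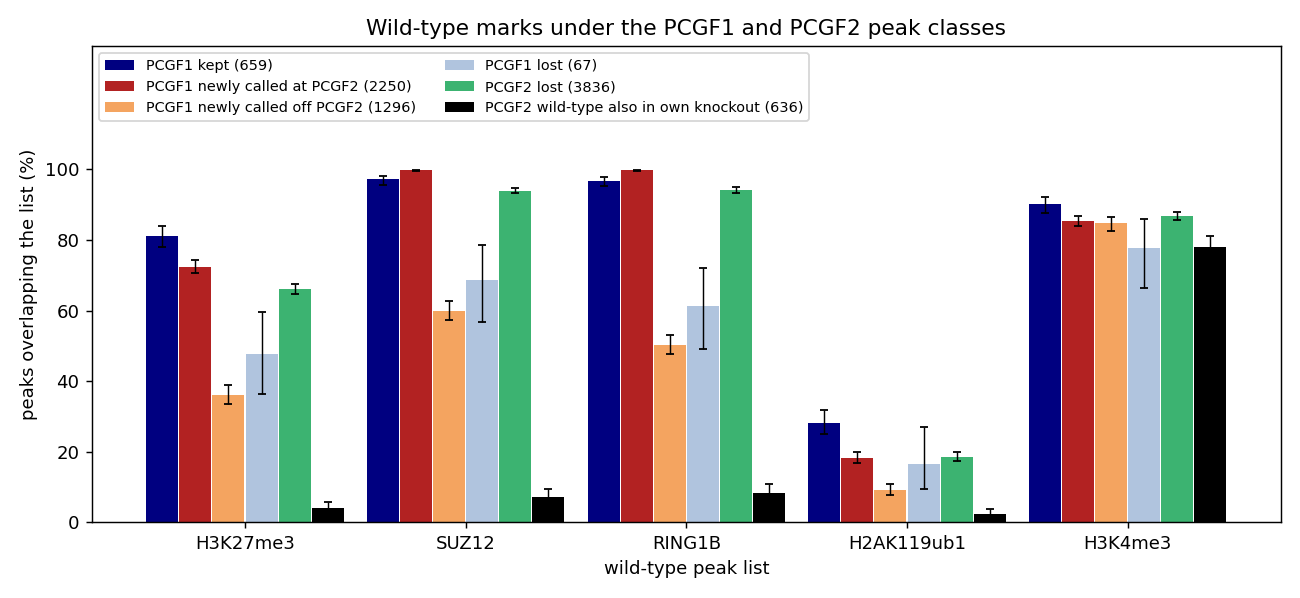
Share of peaks (vertical axis, percent) that overlap a wild-type peak of each mark or factor (horizontal axis), for classes of PCGF1 and PCGF2 peaks with the number of peaks in brackets. Bars are shares and error bars 95% Wilson intervals. SUZ12 lay under 99.9% of new PCGF1 peaks at PCGF2 sites, 60.0% of those away from PCGF2 and 7.08% of the background peaks.

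The 8 strongest new PCGF1 peaks near a start lay at homeobox, channel and other genes. The leading one, at Vax1 (ENSMUSG00000006270.4, chr19:59240677-59245626), a homeobox gene of the ventral forebrain and eye, had a fold enrichment of 12.5 in Ezh1/2-/-. Msx3, a homeobox gene of the dorsal neural tube, had 12.1 and Psd, a gene of an ARF exchange factor, 11.4. Adamts1, a gene of a secreted metalloprotease, had 11.2, Cacna1g, a calcium channel gene, 11.2, and Kcnk9, a potassium channel gene, 11.1. Zfp316, a zinc finger gene, had 10.9 and Eomes, a T-box factor gene of the trophoblast and mesendoderm, 10.7. All 8 sites carried wild-type H3K27me3, SUZ12, RING1B and PCGF2 peaks. Wild-type RNA was 0 in both libraries for Vax1, Msx3, Cacna1g and Kcnk9, and highest for Eomes, with 2.82 and 3.01 RPKM.

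No PCGF2 peak of wild-type cells remained called without EZH1/2 once background was removed. Of the 4472 wild-type peaks, 636 (14.2%, 13.2 to 15.3) overlapped a Pcgf2/4-/- peak, and of the 3836 that did not, 3836 (100%) had no call in the Ezh1/2-/- list. The interval for this kept count of 0 reached 0.100%. It covers counting error in 1 list only and sets no limit on binding missed by the caller. With the background peaks left in, 4320 of 4472 (96.6%, 96.0 to 97.1) had no call, and the 152 that did were all in the Pcgf2/4-/- list. Lists with −log10 q of at least 10 and overlaps within 1 kb also gave 100%.

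In other lines the Pcgf2 antibody called most of the same 3836 sites, except where RING1A and RING1B were both absent. The shares were 95.7% (95 to 96.3) in Pcgf6-/-, 80.1% (78.8 to 81.4) in Pcgf1-/-, 73.3% (71.9 to 74.7) in Ring1a-/-_Ring1bfl, 68.1% (66.7 to 69.6) in Pcgf3/5-/- and 0.521% (0.338 to 0.804) in Ring1a/b-/- cells. The lists also differed in how many background peaks they called. Of 1050 Pcgf2/4-/- peaks, the Ezh1/2-/- list called 155 (14.8%, 12.7 to 17.0) and the Ring1a-/-_Ring1bfl list 136 (13.0%, 11.1 to 15.1). The Ring1a/b-/- list called 42.7% (39.7 to 45.7) of the background and the Pcgf6-/- list 87.9% (85.8 to 89.7). The Ezh1/2-/- list called 42.4% (36.5 to 48.4) of the background peaks in the top bin of 4 by fold enrichment and 2.18% (1.00 to 4.68) of the lowest. The PCGF2 lists also came in different formats. The wild-type, Pcgf2/4-/- and Pcgf3/5-/- lists gave values to 2 decimals with generic peak names. The Ezh1/2-/-, Pcgf1-/-, Pcgf6-/-, Ring1a-/-_Ring1bfl and Ring1a/b-/- lists gave 5 decimals with names derived from the sample. The part of list format and depth in the missing PCGF2 calls was not tested.

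Peaks that the Pcgf2 antibody still gave in Ezh1/2-/- cells were nearly all in its background list. Of its 163 peaks, 156 (95.7%, 91.4 to 97.9) overlapped a Pcgf2/4-/- peak. They lay at starts of active genes, with a median of 78 bases between summit and start and a median wild-type level of 21.4 RPKM, and 94.9% (90.2 to 97.4) had wild-type H3K4me3 against 2.56% (1.00 to 6.41) with H3K27me3. The other 7 had fold enrichments of 1.70 to 2.74 and overlapped none of the wild-type lists compared here. Of these, 3 lay on chromosome 2 between 98502353 and 98507463, near the predicted genes Gm10800 and Gm10801. A further 2 lay near Gm10717 and Gm17535 on chromosome 9, 1 lay elsewhere on chromosome 9 and 1 on chromosome Y.

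The lost PCGF2 peaks carried the wild-type marks of Polycomb sites. H3K27me3 lay under 2535 of 3836 (66.1%, 64.6 to 67.6), SUZ12 under 94.0% (93.2 to 94.7) and RING1B under 94.2% (93.4 to 94.9). At 27.8% (26.4 to 29.2) SUZ12 and RING1B were present without a called H3K27me3 peak. The H3K27me3 share moved with the threshold: with −log10 q of at least 10 in every list it was 42.2% (40.5 to 43.9). H2AK119ub1 was called at 18.6% (17.4 to 19.8), where the wild-type list held 1741 peaks in all. Nearest genes were weakly expressed, with a median of 0.256 RPKM and 69.2% (67.1 to 71.2) of 2019 below 1 RPKM, against a median of 17.6 RPKM at the 636 background peaks.

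Of the 8 strongest lost PCGF2 peaks near a start, 7 lay at transcription factor genes. Nr5a1 (ENSMUSG00000026751.7, chr2:38548176-38570062), a nuclear receptor gene of gonads and adrenals, had the highest wild-type fold enrichment, 44.7. Tnxb, a tenascin gene of the extracellular matrix, had 43.5, Zic1, a zinc finger gene of the neural crest and cerebellum, 42.2, and Sp9, a zinc finger gene of forebrain and limb, 40.9. Foxb2 had 40.3, Six2, a kidney progenitor factor gene, 39.3, Ebf3 39.0 and Six3, a forebrain and eye factor gene, 38.4. None of these 8 sites was called in Ezh1/2-/- by the Pcgf2 antibody, and all 8 were called in Pcgf1-/-, Pcgf6-/- and Ring1a-/-_Ring1bfl cells. All 8 had a PCGF1 peak in Ezh1/2-/-, from 7.34 at Zic1 to 11.6 at Tnxb. In wild-type, Foxb2, Ebf3 and Six3 had no PCGF1 peak meeting the PCGF2 peak, and the other 5 had one of 6.73 to 8.73. Wild-type H3K27me3 was called at 7 of the 8, the exception being Nr5a1. Their wild-type RNA was at most 0.0695 RPKM in either library.

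PCGF1 was called at many more of these PCGF2 sites in Ezh1/2-/- cells than in wild-type cells, from a longer PCGF1 list. Of the PCGF1 peaks themselves, a smaller part lay at these sites in Ezh1/2-/- cells. It was 612 of 726 (84.3%, 81.5 to 86.8) in wild-type and 2777 of 4143 (67.0%, 65.6 to 68.4) in Ezh1/2-/-. A PCGF1 peak met 537 of the 3836 sites in wild-type (14%, 12.9 to 15.1) and 2418 in Ezh1/2-/- (63%, 61.5 to 64.5). At 513 sites PCGF1 was called in both genotypes, at 24 in wild-type alone, at 1905 in Ezh1/2-/- alone and at 1394 in neither. In other lines the share was 85.6% in Ring1a-/-_Ring1bfl, 46.7% in Pcgf6-/-, 35.2% in Pcgf2/4-/-, 10.6% in Ring1a/b-/- and 4.25% in Pcgf3/5-/-, and it was 0% in Pcgf1-/-. The share in Ezh1/2-/- lay between those of Pcgf6-/- and Ring1a-/-_Ring1bfl, as did the length of its PCGF1 list. The part of list length in these shares was not tested.

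Strong PCGF2 sites held PCGF1 most often. In 4 bins of rising wild-type PCGF2 fold enrichment, PCGF1 was called in Ezh1/2-/- at 36.6% (33.6 to 39.7), 51.4% (48.2 to 54.5), 72.2% (69.2 to 74.9) and 92.3% (90.4 to 93.8) of sites. In wild-type the shares were 3.83%, 7.40%, 10.3% and 34.5%. Wild-type H3K27me3 rose over the same bins, from 45.1% to 89.6%. Sites with wild-type H3K27me3 had PCGF1 in Ezh1/2-/- in 76.2% (74.5 to 77.8) and sites without in 37.4% (34.8 to 40.0). Where SUZ12 was not called in wild-type, PCGF1 was called in Ezh1/2-/- at 3 of 230 sites (1.30%, 0.445 to 3.76), and where RING1B was not called, at 5 of 223 (2.24%, 0.961 to 5.14).

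**Figure D3:**
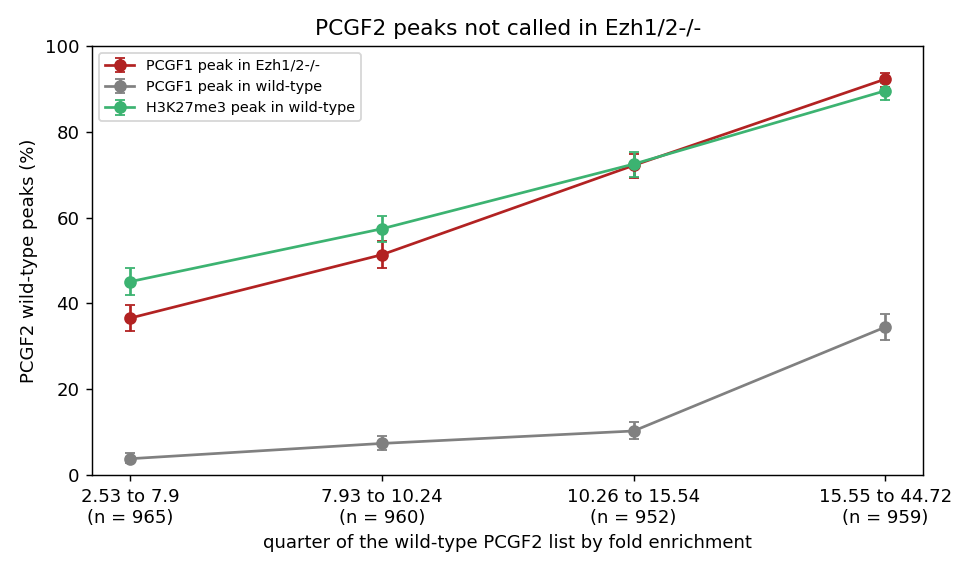
Share of the 3836 wild-type PCGF2 peaks without a call in Ezh1/2-/- (vertical axis, percent) that meet a PCGF1 peak in Ezh1/2-/-, a PCGF1 peak in wild-type or an H3K27me3 peak in wild-type, in 4 bins of wild-type PCGF2 fold enrichment (horizontal axis, number of peaks below each). Points are shares and error bars 95% Wilson intervals. PCGF1 in Ezh1/2-/- rose from 36.6% in the weakest bin to 92.3% in the strongest.

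Summits of all classes lay mostly near gene starts. Within 2.5 kb of a protein-coding start were 81.2% (78.0 to 84.0) of kept, 73.7% (72.2 to 75.1) of new and 71.6% (59.9 to 81.0) of lost PCGF1 peaks, and 72.6% (71.2 to 74.0) of PCGF2 peaks. Outside genes and promoters lay 5.92%, 10.7%, 17.9% and 12.2% in that order. Among all 22232 protein-coding genes, a PCGF1 peak was within 2.5 kb of a start at 533 (2.4%) in wild-type and 2399 (10.8%) in Ezh1/2-/-. A PCGF2 peak was there at 2293 (10.3%) in wild-type and 5 (0.0225%) in Ezh1/2-/-. Own-knockout peaks are left out of these counts, so the 5 rest on the 7 weak PCGF2 peaks described above. Of the 533 genes, 504 also had PCGF1 in Ezh1/2-/- and 29 did not.

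In lists of patterning genes, PCGF2 in wild-type and PCGF1 in Ezh1/2-/- were called at most members, beside 10.3% and 10.8% of all genes. Membership came from textbook knowledge of these families, and a value given for a gene is the fold enrichment of its strongest peak. The 39 Hox genes, which set position along the body axis, had PCGF2 at 35 in wild-type and 0 in Ezh1/2-/-, and PCGF1 at 8 in wild-type and 28 in Ezh1/2-/-. All 8 were among the 28. These gene counts do not require that the peaks of the genotypes overlap. Hoxd9 had PCGF2 at 33.3 in wild-type, and PCGF1 at 6.47 in wild-type and 7.70 in Ezh1/2-/-. The wild-type PCGF1 peak at Hoxd9 overlapped no PCGF1 peak of Ezh1/2-/- cells. Hoxd13 and Hoxd3 had PCGF2 at 33.1 and 29.2 and no wild-type PCGF1 peak, and PCGF1 at 5.51 and 5.40 in Ezh1/2-/-. Hoxa11 had PCGF2 at 29.2 and PCGF1 at 6.51 and 5.38.

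Forkhead factors, regulators of many organ lineages, had PCGF2 at 20 of 24 matched genes in wild-type and 0 in Ezh1/2-/-, with PCGF1 at 9 and 20. Foxl2, of the ovary, had a PCGF2 value of 35.5 and PCGF1 values of 6.82 and 8.05, and Foxa2, of the endoderm, had PCGF2 at 32.4 and PCGF1 only in Ezh1/2-/-, at 8.05. Other homeobox and Pax genes had PCGF2 at 72 of 76 and 0, and PCGF1 at 29 and 74. Isl2, of motor neurons, had PCGF2 at 37.7 with PCGF1 at 7.36 and 9.65, and Pax2, of kidney and midbrain, had 36.2 with 7.64 and 9.74. T-box, Gata and bHLH factors had PCGF2 at 26 of 30 and 0, and PCGF1 at 10 and 25. Neurod2, a neuronal bHLH gene, had PCGF2 at 37.4 with PCGF1 at 9.27 and 10.6, and Olig2, of oligodendrocytes and motor neurons, had 30.8 with PCGF1 only in Ezh1/2-/-, at 9.19. Wnt ligand genes had PCGF2 at 17 of 19 and 0, and PCGF1 at 7 and 16. Wnt5a, a ligand of limb and axis outgrowth, had PCGF2 at 30.4 and PCGF1 only in Ezh1/2-/-, at 6.72, while Wnt11 had 26.2 with 9.82 and 10.1. In these 5 lists no gene with wild-type PCGF1 was without it in Ezh1/2-/-. Over all genes, 504 of the 533 with wild-type PCGF1 also had it there, so nothing particular to these lists is read from this.

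Over all genes, PCGF2 in wild-type was at 10.3% and PCGF1 in Ezh1/2-/- at 10.8%. The shares were 5.56% and 16.7% of the pluripotency genes, 18.2% and 4.55% of the germline genes, 0 and 3.33% of the ribosomal protein genes, and 19.4% and 16.7% of the Polycomb subunit genes. Nothing particular to these short lists is read from them. Of 18 pluripotency genes, PCGF2 was at 1 in wild-type, Esrrb, and PCGF1 at 0 in wild-type and 3 in Ezh1/2-/-, which were Esrrb (8.55), Prdm14 (5.53) and Lin28a (6.28). Of 22 germline genes, PCGF2 was at 4 in wild-type, Gm1564, Stag3, Zcwpw1 and Mei1, and PCGF1 in Ezh1/2-/- at Mei1 alone (5.19). Of 30 ribosomal protein genes, 0 had PCGF2, and Rpl7 had a PCGF1 peak in both genotypes. Among 36 genes of Polycomb subunits, PCGF2 was at 7 in wild-type and 0 in Ezh1/2-/-, and PCGF1 at 0 and 6. Among those with both were Cbx8 (PCGF2 16.8, PCGF1 in Ezh1/2-/- 4.94), of canonical PRC1, Phf19 (14.2 and 6.63), of PRC2, and Kdm2b (8.56 and 6.20) and Bcor (10.5 and 5.22), of the PCGF1 complex. Yaf2 had PCGF1 alone, at 5.87, and Bmi1 and Bcorl1 had wild-type PCGF2 alone.

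**Figure D4:**
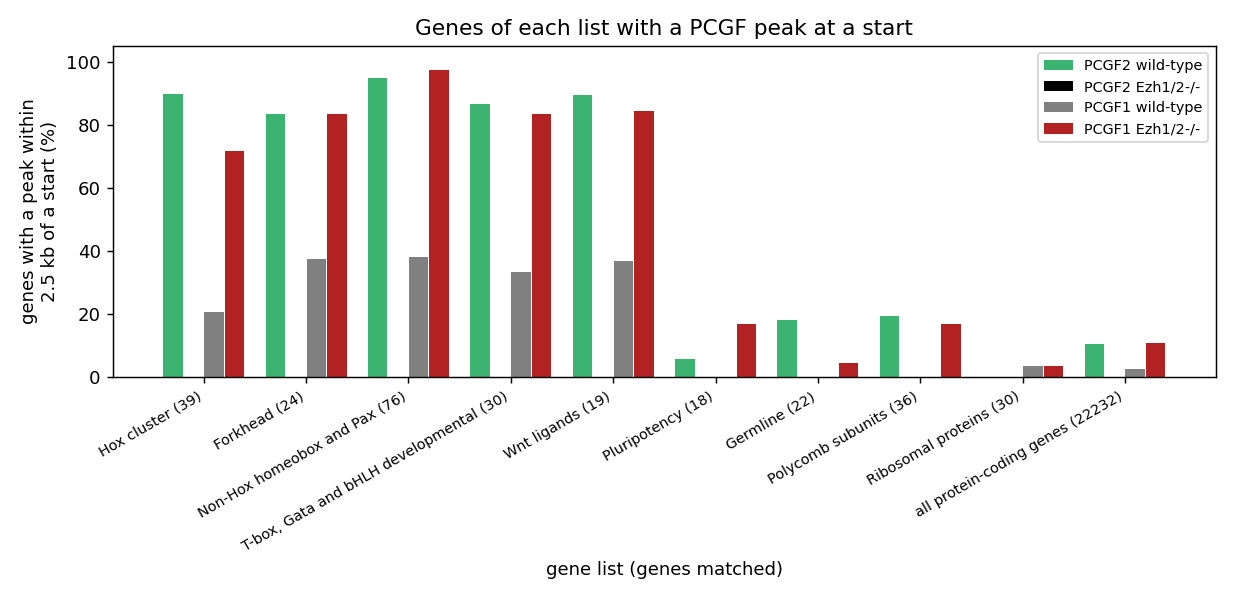
Share of the genes of each list (horizontal axis, number of genes matched in brackets) with a peak within 2.5 kb of an annotated start (vertical axis, percent), for the PCGF2 and PCGF1 lists of both genotypes. Bars are single lists without error bars. PCGF2 in Ezh1/2-/- was at 0 genes in every named list, and PCGF1 went from 8 to 28 of 39 Hox genes and from 533 to 2399 of all 22232 genes.

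The 4 Hox clusters, each taken with 10 kb on either side, gave the change by region. In the Hoxd cluster (chr2:74496367-74613200), PCGF2 had 28 peaks over 36.4 kb in wild-type and 0 in Ezh1/2-/-, and PCGF1 had 1 peak over 0.225 kb in wild-type and 16 over 14.9 kb in Ezh1/2-/-. In Hoxa (chr6:52095366-52220874) PCGF2 went from 30 peaks to 0 and PCGF1 from 5 peaks over 2.03 kb to 17 over 12.8 kb. In Hoxb (chr11:96045630-96239570) PCGF2 went from 19 to 0 and PCGF1 from 0 to 10, over 8.88 kb. In Hoxc (chr15:102741534-102877274) PCGF2 went from 12 to 0 and PCGF1 from 3 to 6, over 0.872 and 4.86 kb. In every cluster PCGF1 in Ezh1/2-/- covered less than PCGF2 had covered in wild-type, 12.7% against 31.2% of the Hoxd region and 10.2% against 32.9% of the Hoxa region.

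**Figure D5:**
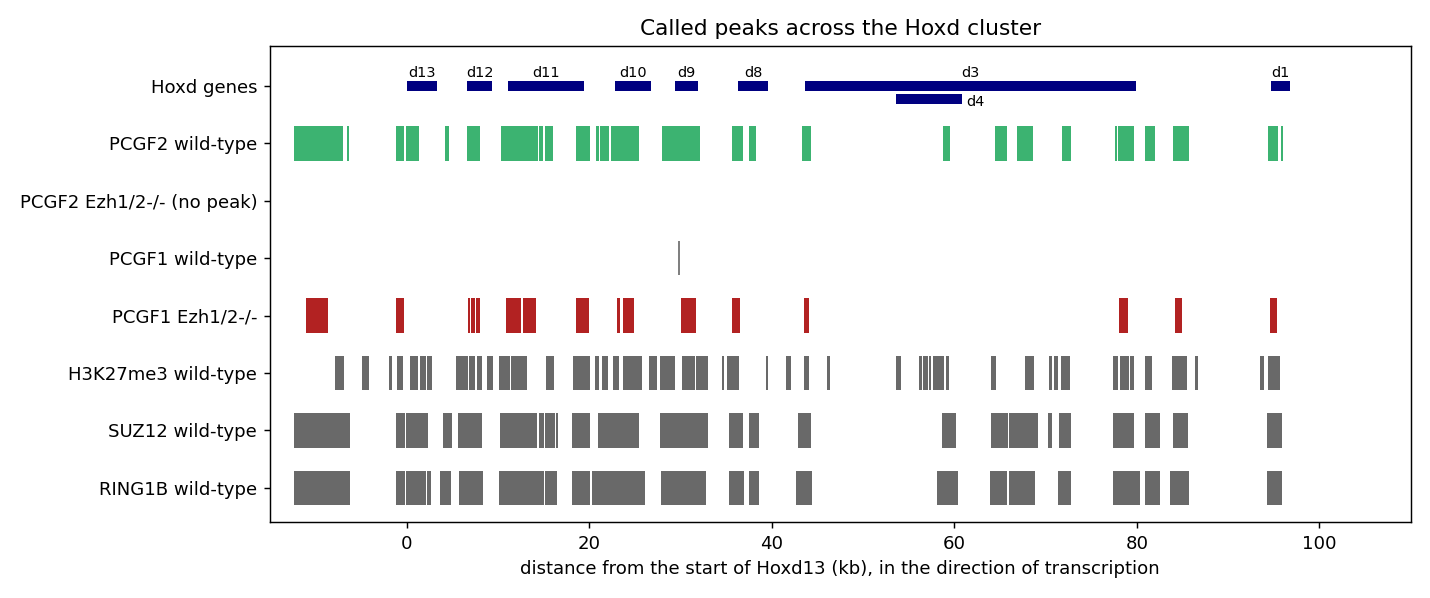
Called peaks across the Hoxd cluster, drawn to scale by distance from the start of Hoxd13 (horizontal axis, kb), with 1 row per list and gene bodies on top. Filled blocks are peaks. PCGF2 had 28 peaks in wild-type and 0 in Ezh1/2-/-, and PCGF1 had 1 and 16.

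The wild-type cells expressed the genes that define embryonic stem cells. All 12 markers of that list, among them Pou5f1, Nanog and Sox2, were at 1 CPM or more in both wild-type RNA-seq libraries, with a summed level of 2710 and 2694 CPM. Of 7 primitive endoderm markers 5 were at 0, Gata4, Gata6, Sox17, Dab2 and Foxa2, and the sum was 3.66 and 3.16 CPM. Trophoblast markers summed to 230.0 and 242.8 CPM, led by Krt8 and Cdx2, with 0 of 7 at 0 counts in both. Fibroblast markers summed to 756 and 755 CPM, led by Fn1 and Vim, with Col3a1 at 0. Their part in the peak lists was not tested.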

How the data were processed

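Peak lists of 24 of the 80 deposited lists were used, each from 1 sample. Per the submitters' processing notes the tools included Bowtie 1.2.2, MACS2 2.1.1 and Picard 1.62 with the build mm9, given without roles or order. PCGF1 chromatin was crosslinked with EGS before formaldehyde, per the labels' protocols. Each deposited list gives a fold enrichment (a linear ratio) and −log10 p and q values per peak, which are the authors' values. They were read by column position in the MACS peak layout. The lowest −log10 p in each list used was at or just above 10. Which control and settings the caller used is not stated there. Gene expression came from the authors' deposited table of whole-number counts per gene. Its 2 wild-type libraries held 6827571 and 6967931 counts, and whether its reads were counted by strand is not stated there. The number of unmapped per-sample columns was 0.

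Peaks overlapping a peak of the same antibody in the own-knockout list were removed. A peak was kept, newly called or lost by an overlap of at least 1 bp. Coordinates and sequences are from NCBIM37 with GENCODE M1, and 0 of the 173656 peaks lay on other chromosome names or past a chromosome end. RPKM are counts scaled to exon length and library total, and CPM are counts scaled to library total alone. Peaks were named by the nearest protein-coding start within 2.5 kb of the summit. Named are the genes of the 8 strongest peaks by fold enrichment among PCGF1 kept, PCGF1 new and PCGF2 lost, the 5 strongest PCGF1 lost, the PCGF2 new ones, and up to 4 genes a list, with the highest wild-type PCGF2 values. Usp5 and other genes named from lists were chosen after their values were seen. The overlap code (Python 3.11.15, scipy 1.17.1) was tested on simulated peaks and against bedtools 2.31.1. Members and lists were chosen with earlier results of these data known. With 1 sample per group no test was made, and samples labelled alike in RNA may be technical replicates. Some items named by the rule are not reported here.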

Additional observations from a re-analysis of the deposited data

How the results depend on the processing

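Of 22 alternatives over the 5 main shares, 6 stayed within the interval of the main value and 16 moved beyond it. Kept PCGF1 peaks, new PCGF1 peaks and H3K27me3 under lost PCGF2 peaks each turned from a majority to a minority under 1 alternative. Kept PCGF1 peaks (90.8%) became 28.8% when 50% of both peaks had to be shared, 94.1% within 1 kb, 93.8% with −log10 q of at least 10 (61 of 65 peaks) and 53% between equally long lists. New PCGF1 peaks (85.6%) became 95%, 79.8%, 96.7% and 55.6% under the same settings, and 6.44% against the wild-type and Ring1a-/-_Ring1bfl lists together. Lost PCGF2 peaks stayed at 100% except with own-knockout peaks left in (96.6%); between equally long lists that value rests on 7 peaks. H3K27me3 under new PCGF1 peaks (59.2%) became 50.4% with −log10 q of at least 10, 51.9% with 50% of the peak covered and 72.6% within 1 kb. H3K27me3 under lost PCGF2 peaks (66.1%) became 42.2%, 52.8% and 76.8%. Own-knockout peaks left in moved neither PCGF1 share. The equal-length setting compares fewer peaks by construction; the other causes were not tested. No paired analysis was possible because each group is 1 sample, and no replicate could be left out. Read depth is unknown from the lists, so a missing call means no peak at the authors' threshold, not absence of binding.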

Other observations

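Background peaks of the Pcgf2 antibody formed a class of their own. The 636 wild-type PCGF2 peaks also called in Pcgf2/4-/- cells had a median fold enrichment of 10.2, close to the median of 10.2 for the other 3836, so height did not separate them. They differed in place and expression: the median distance from summit to start was 172.5 bases against 647, and 22 of 391 measured genes (5.63%, 3.74 to 8.37) were below 1 RPKM. Usp5, a deubiquitinase gene, had one of these, at 39.5 in wild-type.

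Lost PCGF2 sites without PCGF1 in Ezh1/2-/- cells, 1418 in all, were narrower than the 2418 with it, with a median width of 494.5 against 1130.5 bp. Their genes had a median of 0.444 RPKM against 0.172 RPKM, and 65.8% (63.3 to 68.2) against 82.7% (81.1 to 84.1) met the CpG criterion used above.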
